A study of Homo sapiens with 8 samples.

Results

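Carbonic anhydrases were followed through a metastatic breast cancer cell line with and without interleukin-13 (IL-13) and with and without a knockdown of its receptor IL13Rα2. The 10 genes CA1, CA2, CA3, CA4, CA8, CA9, CA11, CA12, CA13 and CA14 were taken by gene symbol from the expression table, in which each had 1 feature, of 29141 features tested and 20219 distinct symbols in all. The family was chosen by measured values of these arrays, taken here to be the log2 expression of CA2 with and without IL-13 in control cells, since CA2 is among the genes that the study lists for that comparison. Those levels of CA2 are therefore given as a description with no test.

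The cells were MIV-Luc, the luciferase-carrying form of MCF10CA1a (MIV), the metastatic line of the MCF10A series of human mammary epithelial lines. All cells carried a pLKO lentiviral hairpin, either a scrambled control (MIV-Luc-shSCR) or hairpin #2 against IL13Rα2 (MIV-Luc-shIL13Rα2#2), and each line was a pooled, drug-selected population with 1 hairpin. Each line was kept for 16 h either without cytokine (mock, − IL-13) or with IL-13 at 20 ng/ml (+ IL-13), and every one of the 4 groups was hybridized to 2 Affymetrix arrays, 8 in all. Values are log2 expression made by the authors with the RMA method, and the arrays of a group are called A and B in column order, since the columns carry no replicate numbers. Differences are log2 changes from limma over all 8 arrays, and calls needed both a change above 2-fold and a p below 0.05 after Benjamini-Hochberg adjustment over the 29141 features. The methods describe 2 biological replicates per condition, but how far the cultures were separate is not stated, so p-values measure only the spread between these arrays.

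Carbonic anhydrases are zinc enzymes that interconvert carbon dioxide and water with bicarbonate and a proton, and so take part in pH control, ion transport and fluid secretion. CA1, CA2, CA3 and CA13 are cytosolic, CA4, CA9, CA12 and CA14 are bound to the cell membrane with the active site outside, and CA8 and CA11 are related proteins that lack the catalytic activity. In breast tumors CA9 is known as a marker of hypoxia and CA12 as a gene of estrogen receptor-positive tumors. IL-13 acts through a receptor of IL4Rα and IL13Rα1 that activates the transcription factor STAT6, whereas IL13Rα2 binds IL-13 as a decoy.

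The arrays of a group correlated at r = 0.992 to 0.993 over the tested features, those of different groups at 0.988 to 0.993, and no pair of arrays was identical. IL13RA2, the targeted gene, read 8.07 and 8.09 in mock-treated shSCR cells and 6.52 and 6.34 in mock-treated shIL13Rα2 cells, a log2 change of −1.65 (adjusted p = 0.0105). IL13RA2 rose with IL-13 in shSCR cells (adjusted p = 0.0135), a call lost without any 1 of the 4 shSCR arrays (adjusted p = 0.124 to 0.160), and by 1.76 on the log2 scale in shIL13Rα2 cells (adjusted p = 0.00264). With IL-13 the knockdown cells read 8.23 and 8.15 against 9.36 and 9.33 (log2 change −1.16, adjusted p = 0.0241). Treated knockdown cells differed from mock-treated control cells by 0.11 (adjusted p = 0.815), so in treated cells the knockdown left IL13RA2 no lower than in untreated control cells. The call with IL-13 was lost without any 1 of the 8 arrays (adjusted p = 0.0780 to 0.214), and the call without IL-13 was lost without any 1 of the 4 arrays it compares (adjusted p = 0.0696 to 0.157). SERPINB3, a known IL-13 response gene, rose by 3.88 and 3.28 on the log2 scale in shSCR and shIL13Rα2 cells (adjusted p = 3.6e-05 and 0.000135). All 7 basal mammary and all 4 epithelial markers lay above the median of the array's 2904 negative control features on all 8 arrays, as did 3 of 3 mesenchymal markers. The same held for 1 of 5 erythroid, 1 of 4 skeletal muscle, 2 of 4 leukocyte and 2 of 3 endothelial markers. On every array the median of the tested features (5.02 to 5.06) also lay above that control median, so these counts do not identify a cell type.

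CA2 was the only member called with IL-13 in knockdown cells, where it rose 2.76-fold, and its level was 2.75-fold higher with IL-13 in control cells. CA2 is the highly active cytosolic enzyme known from red cells, kidney, osteoclasts and secretory epithelia. It read 10.32 and 10.43 in MIV-Luc-shSCR (− IL-13) and 11.80 and 11.88 in MIV-Luc-shSCR (+ IL-13). In MIV-Luc-shIL13Rα2#2 cells it read 10.30 and 10.48 without IL-13 and 11.86 and 11.84 with it. All 4 treated arrays lay above all 4 mock-treated arrays, and within a treatment the arrays of both lines overlapped. The range of the group means of CA2, 1.48 on the log2 scale, was wider than that of 99.8% of the tested features, a description that includes the arrays of the choice.

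**Figure D1:**
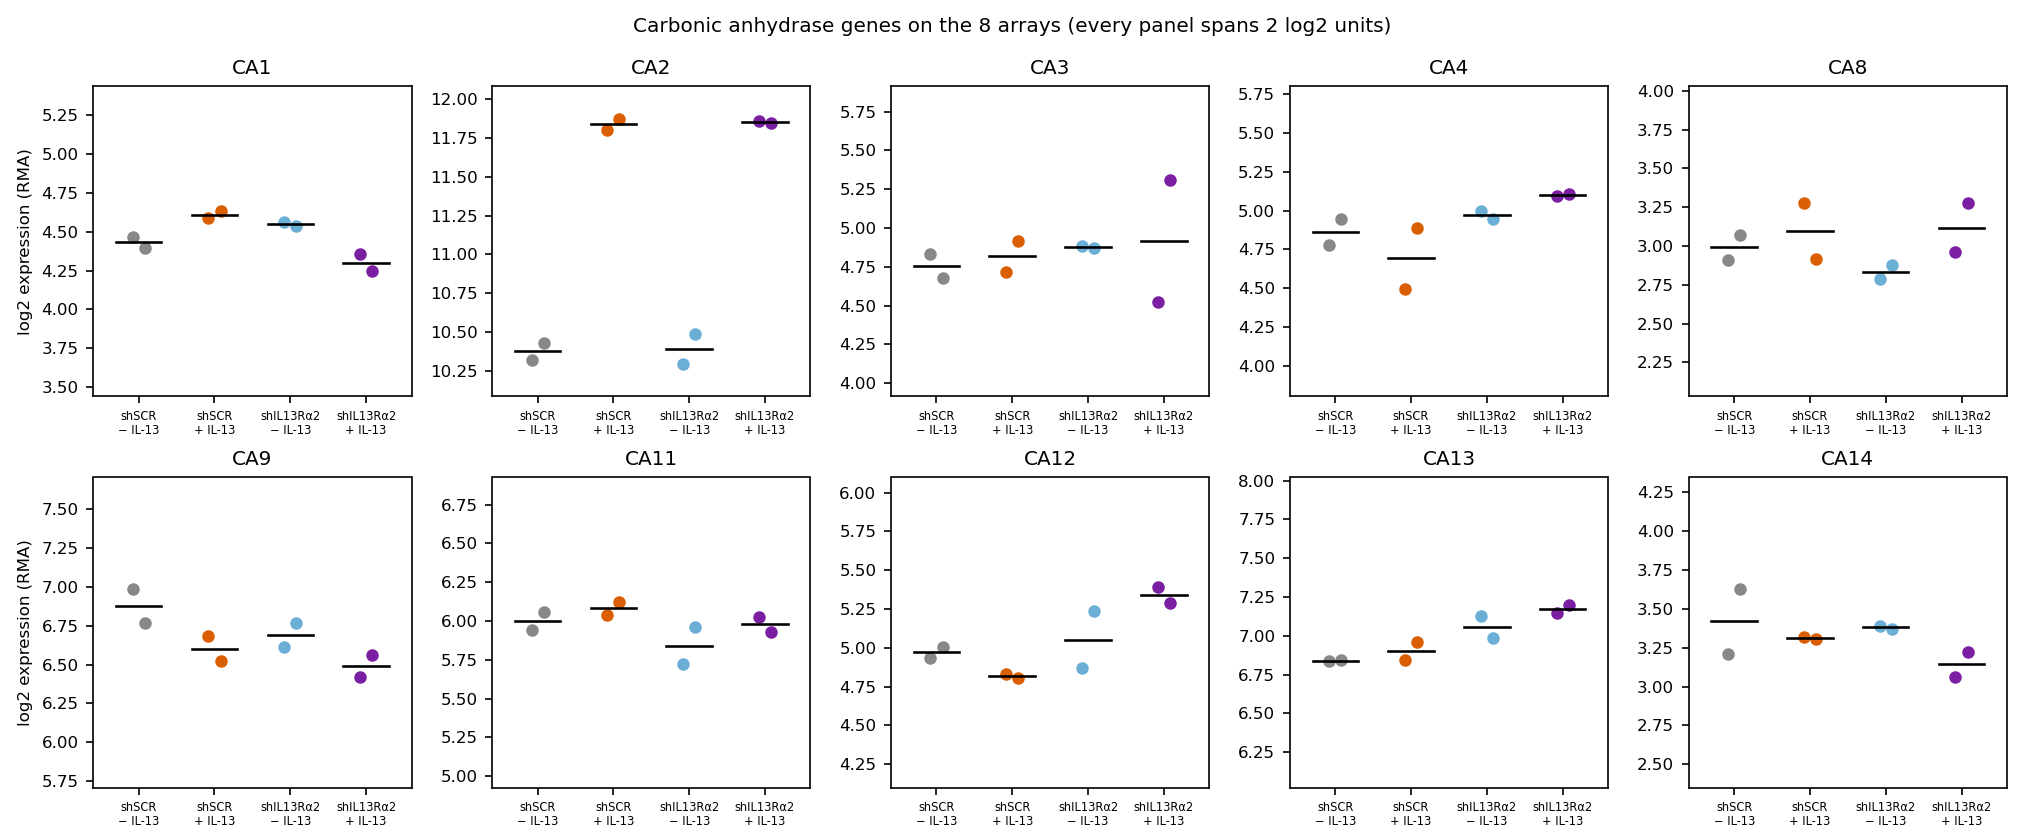
Log2 expression (RMA) of the 10 carbonic anhydrase genes, with 1 point per array, a line at the mean of each group of 2 arrays, and every panel spanning 2 log2 units. CA2 stands near 10.38 without IL-13 and near 11.84 with it in both lines, while the other genes move by less than the 2-fold threshold.

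In shSCR cells CA2 was 1.46 higher on the log2 scale with IL-13 (SE 0.11, 95% confidence interval 1.20 to 1.72), or 2.75-fold. This difference is taken to have drawn the family in and is not offered as a test. By the same call rule 0.0583% of all features passed in this comparison. Among the shIL13Rα2 arrays, which the choice is taken not to have used, CA2 rose by 1.46 (SE 0.11, 95% confidence interval 1.20 to 1.72), or 2.76-fold. The adjusted p was 0.00681 with limma. Since the values behind the choice are assumed and earlier results of these data were known, this p may not be a fresh test. CA2 ranked 12th from the top of all features in shIL13Rα2 cells by log2 change. It was the only carbonic anhydrase called, where 0.0618% of all features were called. The call was lost without any 1 of the 4 shIL13Rα2 arrays (adjusted p = 0.0585 to 0.122) and was kept without any 1 of the 4 shSCR arrays (adjusted p = 0.0278 to 0.0282). RNA was taken from whole cultures, so a higher level in each cell and a larger share of CA2-expressing cells cannot be told apart.

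The knockdown of IL13Rα2 did not move CA2 beyond the spread between arrays in either state. Without IL-13 the difference was 0.014 on the log2 scale (95% confidence interval −0.25 to 0.28, adjusted p = 0.982). With IL-13 it was 0.015 (95% confidence interval −0.25 to 0.28, adjusted p = 0.992). These intervals leave room for a knockdown difference of up to about 0.28 in either treatment and do not show that the lines were equal. The interaction, which is the IL-13 response in knockdown cells minus that in control cells, was 0.000385 for CA2 (SE 0.16, 95% confidence interval −0.37 to 0.37). A larger or smaller response in knockdown cells within that interval was not detectable with 2 arrays a group. Set against the mock-treated shSCR arrays, which the description above also uses, CA2 was 1.48 higher in treated knockdown cells, and over both lines the IL-13 difference was 1.46 (SE 0.08). Both values contain arrays by which the family was chosen, so they are descriptions with no test. None of the other 9 members was called in either comparison, where 0.154% and 0.0927% of all features were.

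**Figure D2:**
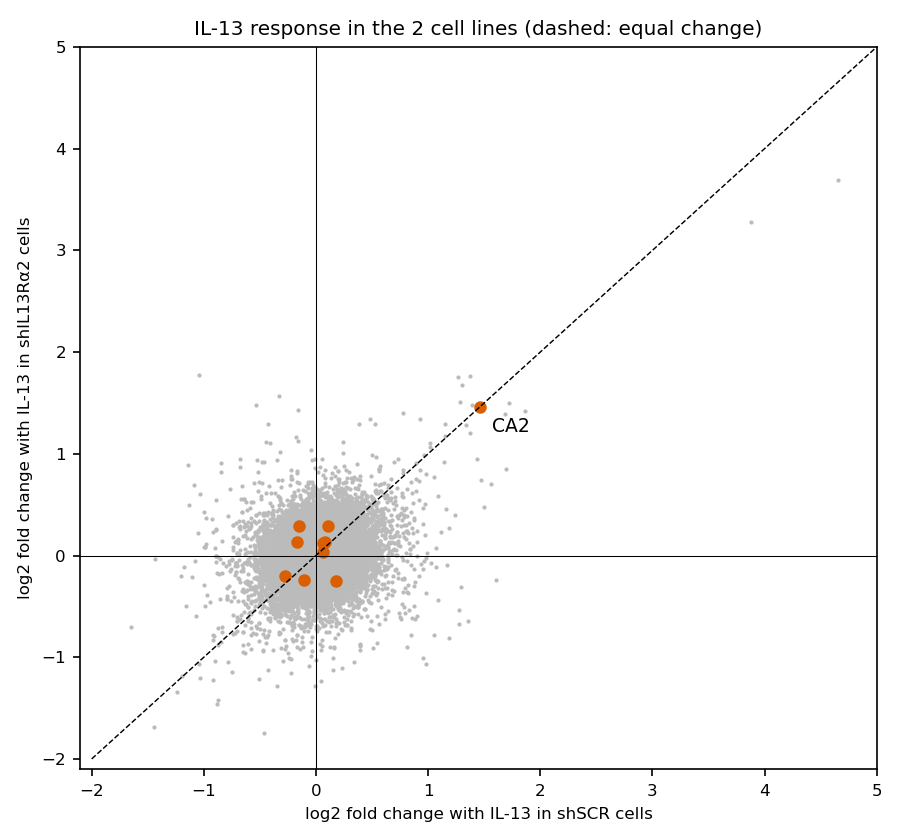
Log2 fold change with IL-13 in shSCR cells (x axis) and in shIL13Rα2 cells (y axis) for all tested features in grey and the 10 carbonic anhydrase genes in orange. CA2 lies at 1.46 on both axes, on the dashed line of equal change, and the other 9 genes lie within the main cloud around 0.

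The other 9 genes gave 45 log2 changes in the 5 comparisons between pairs of groups, and these ran from −0.39 to 0.52, a ratio of at most 1.44. None was called, and the lowest adjusted p was 0.388. An unadjusted p below 0.05 was reached by 8 of the 45, where 6.79% to 9.56% of all features reached it in these comparisons. The 5 comparisons reuse the same 4 groups of arrays, so the 45 values are not separate and the 8 are not a count of genes. Over the whole family the median log2 change with IL-13 was 0.062 in shSCR cells and 0.12 in shIL13Rα2 cells, beside 0.0019 and 0.016 over all tested features. The arrays with and without IL-13 did not overlap for 5 of 10 members in shSCR cells, CA2 among them by the choice, and for 8 of 10 in shIL13Rα2 cells, where 36.7% and 37.4% of all features did not. Of the 9 genes other than CA2, an unadjusted p below 0.05 was reached by none in shSCR cells (6.79% of all features), by CA1 in shIL13Rα2 cells (6.93%), and by CA9 over both lines (8.73%). Between treated knockdown and mock-treated control cells it was reached by CA9, CA12 and CA13 (9.56%), and the arrays did not overlap for 6 members, CA2 included (40.3%). With the treatments pooled over both lines, the 4 treated and 4 mock-treated arrays overlapped for each of the 9 (4.78% of all features had no overlap).

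**Figure D3:**
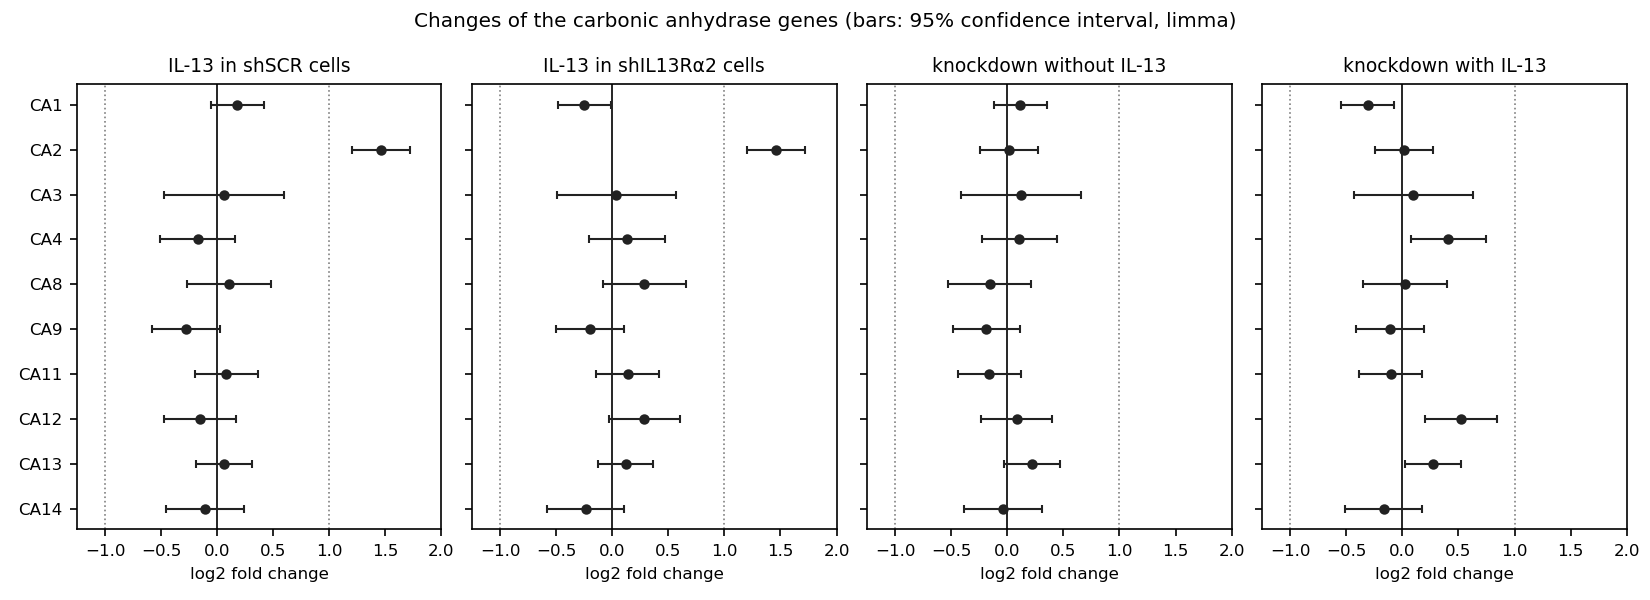
Log2 fold change of each carbonic anhydrase gene with its 95% confidence interval (bars, limma) for IL-13 in each line and for the knockdown in each treatment, with dotted lines at a 2-fold change. CA2 alone lies beyond 2-fold, in both IL-13 comparisons, and is near 0 in both knockdown comparisons.

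Among the other cytosolic enzymes, CA13 was higher in all knockdown arrays than in all control arrays. CA13, a broadly expressed member, read 6.84 and 6.84 without and 6.85 and 6.96 with IL-13 in shSCR cells, against 7.13 and 6.98 without and 7.15 and 7.20 with IL-13 in shIL13Rα2 cells. The knockdown difference was 0.22 without IL-13 and 0.27 with IL-13, and 0.24 over both treatments (SE 0.08, 95% confidence interval 0.07 to 0.42, adjusted p = 0.310). It was therefore not called, and 3.26% of all features were likewise higher without overlap in the 4 knockdown arrays. CA13 was the 1 member of 10 without overlap in either direction, where 7.13% of all features had none.

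CA1, the abundant enzyme of red cells, read 4.47 and 4.40 without and 4.59 and 4.63 with IL-13 in shSCR cells, and 4.56 and 4.53 without and 4.35 and 4.25 with IL-13 in shIL13Rα2 cells. The treated arrays were thus the higher ones in the control line and the lower ones in the knockdown line. The log2 differences with IL-13 were 0.18 and −0.25, and the interaction of −0.43 (SE 0.15) had an unadjusted p of 0.0189 and an adjusted p of 0.989. Of the 10 members CA1 alone had an unadjusted p below 0.05 for the interaction, where 4.47% of all features did and 0% passed the adjusted threshold. CA3, the low-activity enzyme of skeletal muscle, read 4.83 and 4.68, 4.72 and 4.91, 4.89 and 4.87, and 4.52 and 5.31 in the 4 groups in the same order. Its treated knockdown arrays lay 0.79 apart, as far as the lowest and highest of its 8 values, and the groups overlapped in both IL-13 comparisons.

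CA9 leads the membrane-bound members, since it is a known target of hypoxia-inducible factor (HIF). The 250 bases before its start in RefSeq (GRCh38.p14, plus strand, chr9:35673678-35673927) are shown because they hold the letters of the hypoxia element on which that background rests. Capitals mark CACGT at bases 233 to 237, which is the reverse complement of the core ACGTG.
CA9: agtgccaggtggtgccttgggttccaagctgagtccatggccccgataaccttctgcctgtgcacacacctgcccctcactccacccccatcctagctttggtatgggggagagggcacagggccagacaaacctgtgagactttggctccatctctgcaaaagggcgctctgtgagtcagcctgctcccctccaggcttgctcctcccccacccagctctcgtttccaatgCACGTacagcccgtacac
ACGTG on either strand was present in 21.4% of 35116 RefSeq promoter windows of 300 bases, and in neither of the windows of CA12 and CA14, the other members with an entry of 10. The STAT6 motif, TTC and GAA with 4 bases between them, and the general STAT motif with 3 bases between were in none of these 3 windows, and in 6.44% and 7.66% of all. A match or its absence is a description of these letters and says nothing about binding of a factor.

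CA9 read 6.99 and 6.77 without and 6.68 and 6.52 with IL-13 in shSCR cells, and 6.61 and 6.77 without and 6.42 and 6.57 with IL-13 in shIL13Rα2 cells. In each line both treated arrays lay below both mock-treated arrays. The log2 differences were −0.28 and −0.20, and over both lines −0.24 (SE 0.09, adjusted p = 0.525), so CA9 was not called in any comparison. The widest gap was between treated knockdown and mock-treated control cells, −0.39 with an adjusted p of 0.416.

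CA12, the membrane enzyme tied to estrogen receptor status, read 4.94 and 5.00 without and 4.83 and 4.80 with IL-13 in shSCR cells. In shIL13Rα2 cells it read 4.87 and 5.24 without and 5.39 and 5.29 with IL-13. Treated arrays were lower than mock-treated ones in the control line and higher in the knockdown line. Its knockdown difference with IL-13, 0.52 or 1.44-fold (95% confidence interval 0.21 to 0.84), was the largest difference of any member other than CA2 in the pairwise comparisons, with an unadjusted p of 0.00535 and an adjusted p of 0.433. The interaction for CA12 was 0.44 (SE 0.19, adjusted p = 0.989). CA4, which is held to the membrane by a lipid anchor, read 4.50 and 4.89 in treated shSCR cells and 5.09 and 5.11 in treated shIL13Rα2 cells, a difference of 0.41 (adjusted p = 0.624).

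CA14, a transmembrane member, lay between 3.06 and 3.63 on the 8 arrays and was −0.17 with IL-13 over both lines (adjusted p = 0.695). CA8, a protein without catalytic activity that binds the inositol trisphosphate receptor, lay between 2.79 and 3.28, with 0.20 for IL-13 over both lines (adjusted p = 0.679). CA11, the other such member, lay between 5.72 and 6.12, with 0.11 for IL-13 over both lines (adjusted p = 0.767). None of these 3 genes passed the test in any comparison.

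Of the 10 members 0 were called for the knockdown without IL-13, with IL-13 or over both treatments, where 0.0652%, 0.0515% and 0.0755% of all features were. At an unadjusted p below 0.05 the counts were 0, 4 and 3 members, where 9.51%, 7.07% and 11.3% of all features passed. The 4 members with IL-13 were CA1, CA4, CA12 and CA13. Knockdown and control arrays did not overlap for 5 members without and 6 with IL-13, where 41.2% and 36.4% of all features did not.

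Signal over background differed across the family. The array's negative control features had a median of 4.19 and spread from 2.07 at the 5th to 9.60 at the 95th percentile, which makes them a coarse scale. The mean of CA2 exceeded 98.0% of them, those of CA13, CA9 and CA11 exceeded 73.9% to 83.0%, and those of CA1, CA3, CA4 and CA12 exceeded 54.6% to 63.2%. CA14 and CA8 exceeded 33.3% and 27.3%, and both lay under their array's control median on all 8 arrays, so their differences are those of signals not above background. Taken array by array, the control median ran from 4.12 to 4.38. CA1 lay under its array's median on array B of treated shIL13Rα2 cells (4.25 against 4.38) and above it on the other 7, and the remaining 7 members lay above it on all 8. Features of different genes differ in their probes, so these levels do not rank the genes against each other.

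**Figure D4:**
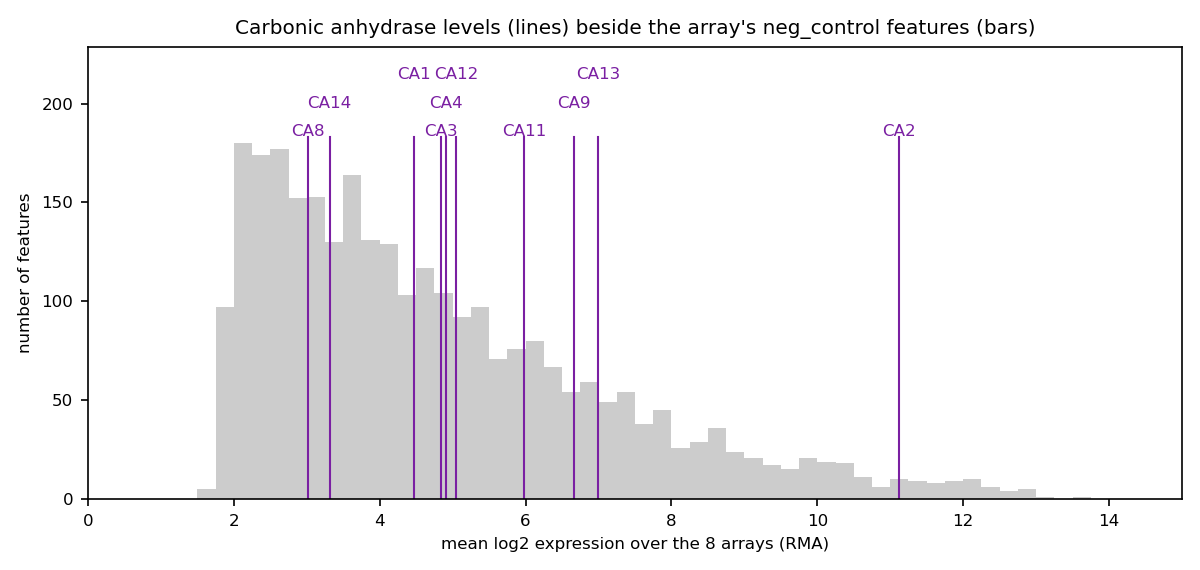
Mean log2 expression over the 8 arrays of the 10 carbonic anhydrase genes (vertical lines) beside the number of the array's 2904 negative control features at each level (bars, in steps of 0.25). CA2 lies in the upper tail, CA8 and CA14 lie under the median of the bars at 4.19.

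CA13, CA1, CA3 and CA2 are neighbors on chromosome 8, in that order, with E2F5 and RBIS before them in RefSeq. In shIL13Rα2 cells CA2 alone was called with IL-13 among these 6 genes, where 0.0618% of all features were called. The absence of calls in the other 5 genes is near that share and is no result about this stretch of chromosome 8. The log2 differences with IL-13 of the other 5 genes ran from −0.12 to 0.18 in shSCR cells and from −0.25 to 0.12 in shIL13Rα2 cells.

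The genes whose levels were most like those of CA2 over the 8 arrays were sought among 139 other named features whose group means spanned more than 1 log2 unit. SLIT2, a secreted guidance protein, had r = 0.992. FAP, a surface protease, had r = 0.990, and LRAT, which esterifies retinol, had r = 0.989. SERPINB3 followed with r = 0.987 and the exporter ABCC2 with r = 0.986. The arrays fell into treated and mock-treated clusters for these genes, so each r is a description carried by the difference between those clusters and has no p.

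The partners of carbonic anhydrases in pH control and secretion were mostly uncalled. SLC26A2, a sulfate and anion exchanger, was the only one of 11 SLC26 genes called with IL-13 in any comparison. Over all features 0.0583% were called with IL-13 in shSCR cells and 0.0618% in shIL13Rα2 cells. SLC26A2 read 5.53 and 5.66 without and 6.65 and 6.83 with IL-13 in shSCR cells, and 6.45 and 6.36 without and 7.33 and 7.31 with IL-13 in shIL13Rα2 cells. The treated arrays were higher in each line, and the knockdown arrays were higher than the control arrays in each treatment. Its IL-13 change was 1.14 in shSCR cells (adjusted p = 0.0208), a comparison for which the study lists this gene too, so that p is no fresh test. In shIL13Rα2 cells the change was 0.91 (adjusted p = 0.0650) and was not called. The call in shSCR cells was lost without any 1 of the 8 arrays. SLC26A2 was also called between treated knockdown and mock-treated control cells (1.73, adjusted p = 0.00412) and with IL-13 over both lines (1.03, adjusted p = 0.00321). Both comparisons contain shSCR arrays of the listed comparison, so these p-values are no fresh test either. Over all features 0.154% and 0.0927% were called in these comparisons. Without each array the 2 changes ran from 1.66 to 1.79 and from 0.98 to 1.08, the second reaching under the 2-fold threshold.

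EGLN3, a HIF prolyl hydroxylase and itself a HIF target, was the only called gene of 17 HIF regulators and targets. With IL-13 over both lines the median log2 change of these 17 genes was −0.056, beside 0.0084 over all features. The largest change there after that of EGLN3 was a lower level of BNIP3 (−0.47, adjusted p = 0.0677 with limma), which was not called. BNIP3 had 2 features, and only the one with the higher mean level was used. EGLN3 read 5.67 and 5.86 without and 6.08 and 6.22 with IL-13 in shSCR cells, and 5.79 and 5.73 without and 7.01 and 7.09 with IL-13 in shIL13Rα2 cells. The treated knockdown arrays of EGLN3 stood above all the others. Its IL-13 change was 1.29 in shIL13Rα2 cells (adjusted p = 0.0155) and 0.38 in shSCR cells (adjusted p = 0.603), and the difference between these responses, 0.91, had an adjusted p of 0.989. EGLN3 was also called between treated knockdown and mock-treated control cells (1.29, adjusted p = 0.00969). Over all features 0.0618% were called with IL-13 in shIL13Rα2 cells and 0.154% in this further comparison. Each call was lost without any 1 of the 4 arrays it compares.

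None of the 7 other carbonic anhydrase family genes on the array was called in any comparison. The same was true of 10 SLC4 bicarbonate transporters, 19 genes of proton and lactate extrusion, 8 luminal and estrogen response genes and 7 genes of water and chloride transport. Outside the interaction, which had no calls, 0.0515% to 0.154% of all features were called. The absence of calls in lists of 7 to 19 genes is near that share and is no result about these genes. With IL-13 over both lines, CA5A, a mitochondrial carbonic anhydrase, differed by −0.34, but it lay under the control median on all 8 arrays. The largest differences in the other lists were 0.31 for SLC4A7, a sodium bicarbonate cotransporter, −0.28 for SLC9A9, an endosomal sodium-proton exchanger, 0.18 for GATA3, a luminal transcription factor, and 0.32 for AQP3, a water and glycerol channel. PTPRZ1, a receptor phosphatase with a carbonic anhydrase-like domain, differed by 0.62 for the knockdown without IL-13 (adjusted p = 0.278) and also lay under the control median on all 8 arrays. The median of the 7 further family genes with IL-13 over both lines was −0.008, beside 0.058 over the 10 members and 0.0084 over all features.

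**Figure D5:**
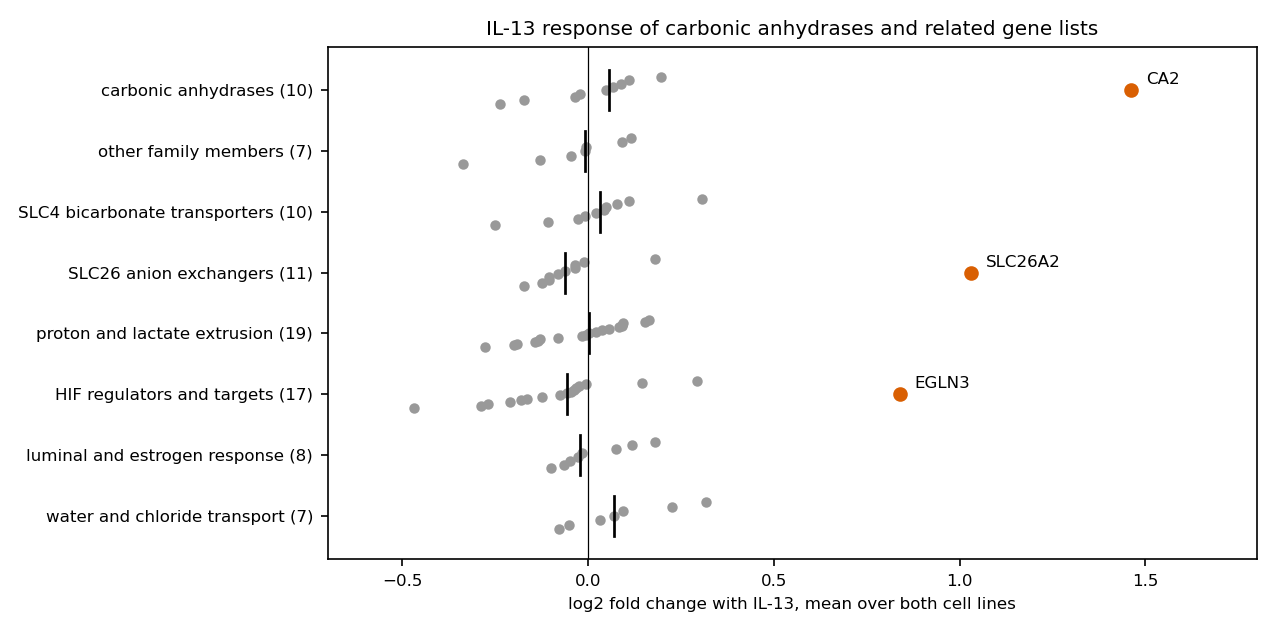
Log2 fold change with IL-13, as the mean over both lines, of the 10 carbonic anhydrase genes and of 7 lists of related genes, with 1 point per gene, a vertical line at each list's median, the number of genes in parentheses, and genes with an adjusted p below 0.05 in orange, a description for CA2, whose control-cell arrays were used in the choice. CA2 (1.46), SLC26A2 (1.03) and EGLN3 (0.84) stand apart from the rest, and EGLN3 stays under the 2-fold threshold in this comparison, where 0.233% of all features had an adjusted p below 0.05. For SLC26A2 the color is no fresh test, since the study lists this gene for the shSCR part of the comparison.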

How the data were processed

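The authors deposited log2 expression values of 33297 gene-level features on 8 arrays, made with RMA in Affymetrix Expression Console version 1 per the labels, that is, with background correction, quantile normalization and probe summary already done. The labels name the array as GeneChip Human Exon 1.0ST, but 33297 features is nearer the size of a gene-level array design, so which probes make up a feature is uncertain here. Differences of weakly expressed genes may be compressed by background signal, and such compression was not measured here. Columns were assigned to the 4 groups by construct and treatment. The 4156 control features were left out and 29141 features were tested without a filter. Group means were fitted with limma 3.58.1 in R 4.3.3 (4 residual and 3.86 prior degrees of freedom), with intervals from the same fit, and the procedure was tested on simulated data. The number of arrays limits the precision.

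Members and gene lists were chosen with earlier results of these data known. Named were all members, IL13RA2 and SERPINB3 as checks, list genes called or among the 2 largest differences of a comparison, and the 5 genes most like CA2. Members were matched by symbol, and 3 of 10 had a RefSeq promoter entry.

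Other settings were analysis of variance between groups, as in the methods (called the methods' test), with and without adjustment, limma without adjustment or restricted to the arrays compared, a 1.5-fold or no fold threshold, removal of the dimmest 30% of features, arrays set to a common median or quantile-normalized again, a variance prior that follows intensity and resists outliers, and omission of each array.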

Additional observations from a re-analysis of the deposited data

Results flagged for a closer look

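CA1 and CA12 differed with IL-13 in opposite directions in the shSCR and shIL13Rα2 lines, and CA1 differed with the knockdown in opposite directions without and with IL-13, each time with no overlap between the arrays compared. For CA1 the log2 difference with IL-13 was 0.178 in shSCR and −0.249 in shIL13Rα2 cells, and the knockdown difference was 0.117 without and −0.310 with IL-13. For CA12 the difference with IL-13 was −0.153 in shSCR and 0.287 in shIL13Rα2 cells. The interaction, tested with limma, had an adjusted p of 0.989 for both genes, so the opposite directions did not pass the test of their difference. CA1 read 4.25 to 4.63 on the 8 arrays, where the median of the negative control features ran from 4.12 to 4.38, and on array B of treated shIL13Rα2 cells CA1 lay under that array's median (4.25 against 4.38).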

How the results depend on the processing

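With 2 arrays a group, single calls were fragile. For IL-13 in shIL13Rα2 cells the count of members called, 1 (CA2), fell to 0 with the methods' test after adjustment (CA2 adjusted p = 0.748) and with limma on the 4 arrays compared (adjusted p = 0.0930), where fewer arrays entered the fit. The corresponding counts for IL-13 in shSCR cells and for treated knockdown against mock-treated control cells, which rest on arrays of the choice and are no test of CA2, also went from 1 to 0. Over all features the 17 calls for IL-13 in shSCR cells and the 18 for IL-13 in shIL13RA2 cells became 0 and 0, and 2 and 2, in these settings. Leaving out each array, with the lone array of a group assumed to vary like the other groups, gave 0 to 1 members for each of these 3 comparisons. For IL-13 over both lines, of which the shSCR arrays of the choice are an equal part, the count was 1 throughout, as a description. Without adjustment the interaction had 1 member, CA1. The values of CA2 near 0 changed sign: the knockdown difference with IL-13 was −0.0030 and the interaction −0.0125 after the shift to one median, and the interaction was −0.0034 after quantile normalization. Without each array they ran from −0.080 to 0.11 (knockdown without IL-13), −0.023 to 0.052 (with IL-13) and −0.094 to 0.095 (interaction). No other member's named value changed direction. The cause was not tested. No paired analysis was possible because the columns carry no replicate numbers.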
